A study of Drosophila melanogaster with 3 samples.

Results

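The regions described are intronic peaks close to a gene start in Drosophila embryos, from a chromatin immunoprecipitation sequencing (ChIP-seq) experiment on the protein NfI. Their summit lay in an intron, more than 500 and at most 2000 bp from the nearest transcription start site (TSS). Whether NfI itself binds DNA at each of them was not tested. A summit was taken when it lay inside a gene body, in no exon of any annotated transcript, and at that distance from the nearest TSS of any gene. The rule took 846 of the 5806 peaks of the optimal list, and used position alone, no signal value. The material was whole embryos of mixed sex of the strain NfI-GFP, a transgenic line stably expressing NfI with green fluorescent protein at its C terminus. The source label gives their age as 12 to 24 h, whereas a separate age label holds a number of hours outside that range and was not used. All 3 libraries, biological replicates 2, 3 and 4, belong to this 1 group. There was no untreated or wild-type group, and 1 control alignment was used with all 3 libraries. The sample descriptions speak of an input control, whereas the assay title and the antibody label name transcription factor ChIP-seq and NfI, and the libraries are treated here as immunoprecipitates. In whole embryos the cell types that hold a peak cannot be told apart.

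Nuclear factor I proteins bind DNA as dimers through an N-terminal domain, and in vertebrates they recognise a palindrome with TTGGC arms. In mammals they act in the development of brain glia, muscle and lung, while flies have a single family member, NfI. Introns near a gene start, the first intron above all, often hold enhancers and alternative promoters in flies.

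The sequences below are shown because 1 hexamer, ACAGTG, set the summits of these regions apart from other intron sequence more than any other hexamer, as described further on. It was chosen after the values were seen. Each line gives 28 bases (dm6, the reference genome sequence of RefSeq, 5′ to 3′ on the strand that reads ACAGTG), with the hexamer in capitals, from the strongest members that hold it on the arms from which sequence is shown.

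Lk6: agcatagttttACAGTGgcacataaact
norpA: ttatctcaagtACAGTGgggcctttttg
for: ctgagtcgaatACAGTGggacccccact
NFAT: gttgctttgccACAGTGggctagagcgt
CHES-1-like: atcgttgtggtACAGTGgaaactgcttt
CG31635: tttattttaacACAGTGttatttattat
Zw: gtcacaagccgACAGTGgtgtttgccta
Csk: ggtcacacgatACAGTGgccgcaaaagg
Baldspot: tcacttttctcACAGTGttctgggagca

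The site at Lk6, a kinase gene of the MAP kinase pathway whose product phosphorylates the translation factor eIF4E, lay at 3R:11761018-11761045 on the plus strand, 15.5 bp from the summit. The site in norpA, which encodes the phospholipase C of the visual cascade, was at X:4325054-4325081 on the minus strand, 77.5 bp from its summit. The site in for, a gene for a cGMP-dependent protein kinase, was at 2L:3655713-3655740 (plus strand, 83.5 bp), and the site in NFAT, a Rel-family transcription factor gene, at X:13640424-13640451 (plus strand, 59.5 bp). In CHES-1-like, a forkhead gene, it was at X:7706891-7706918 (plus strand, 96.5 bp). Of the 9 sites shown, 7 are followed by G.

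Summits themselves were rich in A and T. The next lines show 61 bases centred on the summit (plus strand) of the strongest members, with the hexamer in capitals where it or its complement CACTGT occurs.

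CG11050: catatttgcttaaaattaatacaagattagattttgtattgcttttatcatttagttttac
ush: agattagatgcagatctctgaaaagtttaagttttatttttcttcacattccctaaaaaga
Lk6: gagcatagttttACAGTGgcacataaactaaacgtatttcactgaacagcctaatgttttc
CG32772: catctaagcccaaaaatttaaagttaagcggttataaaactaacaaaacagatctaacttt
Trl: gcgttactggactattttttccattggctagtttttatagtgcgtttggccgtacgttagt

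These stretches lie at 2L:6612685-6612745 (CG11050), 2L:481027-481087 (ush), 3R:11761017-11761077 (Lk6), X:4910336-4910396 (CG32772) and 3L:14759494-14759554 (Trl). Their GC content was 19.7%, 27.9%, 36.1%, 27.9% and 41.0% in that order. Only Lk6 holds the hexamer among these 5 stretches.

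Introns close to a gene start held more summits than introns farther away. The class held 14.6% of all optimal summits (95% Clopper-Pearson interval 13.7 to 15.5) in 8.54% of the bases of the 6 arms analysed, a 1.71-fold excess (2-sided exact binomial test, adjusted p = 2.38e-51). Per megabase of such intron there were 74.0 summits. Introns 2001 to 10000 bp from a TSS held 33.9 per Mb, introns more than 10000 bp away 13.0, and intergenic sequence, which starts just past 500 bp from a TSS and has no upper limit, 18.2. The density was 2.18 times that of introns 2001 to 10000 bp away, 5.71 times that of the farthest introns and 4.06 times that of intergenic sequence (exact conditional binomial tests, adjusted p = 6.40e-56, 5.37e-151 and 1.01e-156). These tests count peaks as independent and say nothing of how far embryo collections differ. Among the 5806 strongest peaks of replicates 2, 3 and 4, the class held 13.8%, 15.7% and 14.1% (on average 14.5% ± 1.04, SD, n = 3), in each replicate above the share of bases.

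Density fell with distance inside the class as well. The first 250 bp of the class, up to 750 bp from the TSS, held 237 members, or 104 per Mb in the optimal list and 102 ± 7.74 per Mb over the replicates (SD, n = 3). The last 250 bp, 1751 to 2000 bp away, held 87 members, or 55.5 per Mb in the optimal list and 56.8 ± 4.82 over the replicates. The intervening bins gave 82.6 ± 7.51, 67 ± 4.46, 69.5 ± 4.90 and 53.6 ± 4.53 per Mb over the replicates, so neighbouring bins beyond 1000 bp overlapped within their SDs in part. The decline went on past the limit of the class, to 43.6 ± 4.39 per Mb at 2001 to 3000 bp and 25.5 ± 6.21 at 8001 to 10000 bp. The median distance of a member was 999 bp.

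**Figure D1:**
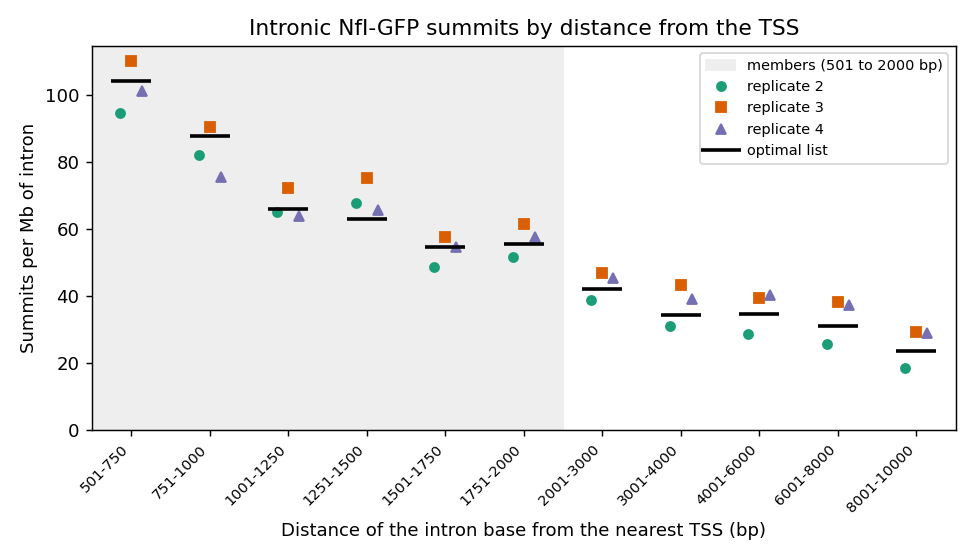
Summits per Mb of intron (y axis) by distance of the intron base from the nearest TSS in bp (x axis, bins of unequal width). Points are the 5806 strongest peaks of each replicate, black bars the optimal list, and the shaded bins hold the members. Density fell with distance, 104 per Mb in the first bin and 23.5 in the last by the optimal list.

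Signal is given as relative signal, the signal of the strongest overlapping peak of a replicate over the median of the 5806 strongest in the same list. The members closest to the limits had mean relative signals between 0.652 and 1.35. Just inside the lower limit lay peaks nearest to CG11200 (1 bp past the limit, relative signal 1.35 ± 0.319, SD, n = 3) and DopEcR (503 bp, 1.20 ± 0.419), and just outside it intronic summits nearest to pAbp (499 bp, 2.93 ± 1.12) and Sec13 (499 bp, 2.21 ± 0.384). Just inside the upper limit lay peaks nearest to Dys (1991 bp, 0.658 ± 0.0559) and Agpat2 (1989 bp, 0.652 ± 0.289), and just outside it peaks nearest to RhoGAP18B (2004 bp, 1.26 ± 0.174) and CG9171 (2005 bp, 0.758 ± 0.264).

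Of the 20 strongest optimal peaks 6 were members and 13 promoter summits, and of the 100 strongest 16 were members and 71 promoter summits, while members made up 14.6% of the list and promoter summits 53.6%. The strongest 25% of the optimal list held 200 members, 23.6% of the class, against 17.8% of introns 2001 to 10000 bp away and 29.7% of promoter summits. The median relative signal of members was 0.944, 1.09 and 1.07 in replicates 2, 3 and 4 (average 1.04 ± 0.0798, SD, n = 3). For introns 2001 to 10000 bp away the medians were 0.811, 1.07 and 1.04, a mean of 0.975 ± 0.142. Members were higher in all 3 replicates, and the exact sign-flip permutation test gave p = 0.25, the smallest p that 3 replicates allow. For promoter summits, those within 500 bp of a TSS, the medians were 1.22, 0.996 and 1.10, so members lay above them in replicate 3 and below them in replicates 2 and 4 (exact sign-flip permutation test, p = 0.75).

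The strongest member lay in CG11050 (2L:6612479-6612942), in an intron of 140 bp and 1028 bp from the nearest TSS. Its relative signal was 20.5, 17.3 and 16.8 in replicates 2, 3 and 4. The next member lay in the first intron of ush (2L:480884-481294), which encodes a FOG-family cofactor of GATA factors, and was nearest to a TSS of cbt, a zinc finger transcription factor gene, 1369 bp away. Its relative signal was 14.6, 15 and 18.7. Both peaks were thus more than 10 times as high as a typical strong peak in every replicate.

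In Lk6 (3R:11760857-11761240, first intron, 968 bp) the relative signal was 13.4, 14.6 and 17.9 in replicates 2, 3 and 4. In CG32772 (X:4910029-4910593, first intron, 1264 bp) it was 15.1, 12.7 and 13.3. In Trl, which encodes GAGA factor (3L:14759310-14759733, 1525 bp), it was 15, 11.9 and 10.8. The values of these 3 members overlap, and replicate 2 was the lowest in Lk6 and the highest in the other two. The remaining members past a mean of 10 lay in CG9663 and in the shared first intron of HmgD and HmgZ, which encode HMG-box chromosomal proteins (2R:21703080-21703695, 11.3 ± 2.40, SD, n = 3).

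From norpA downwards the members of the first 20 formed a closer group, with means between 5.68 (CG4496) and 7.86 (norpA). They included introns of Adf1, a MADF-domain transcription factor gene (6.83 ± 1.08), of wde, which encodes a cofactor of the H3K9 methyltransferase Eggless (6.65 ± 1.02), of chif and Hyls1 (6.89 ± 1.13), of for (6.61 ± 0.148) and of NFAT (6.89 ± 1.66). CG3726, CG9837, Reph, CHES-1-like, CG31635 and LPCAT, a gene of phospholipid remodelling, completed the group. The peak in CHES-1-like was nearest to a TSS of lncRNA:CR43287. Of the 20 peaks, those in ush and CHES-1-like were nearest to a TSS of a gene other than the host.

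**Figure D2:**
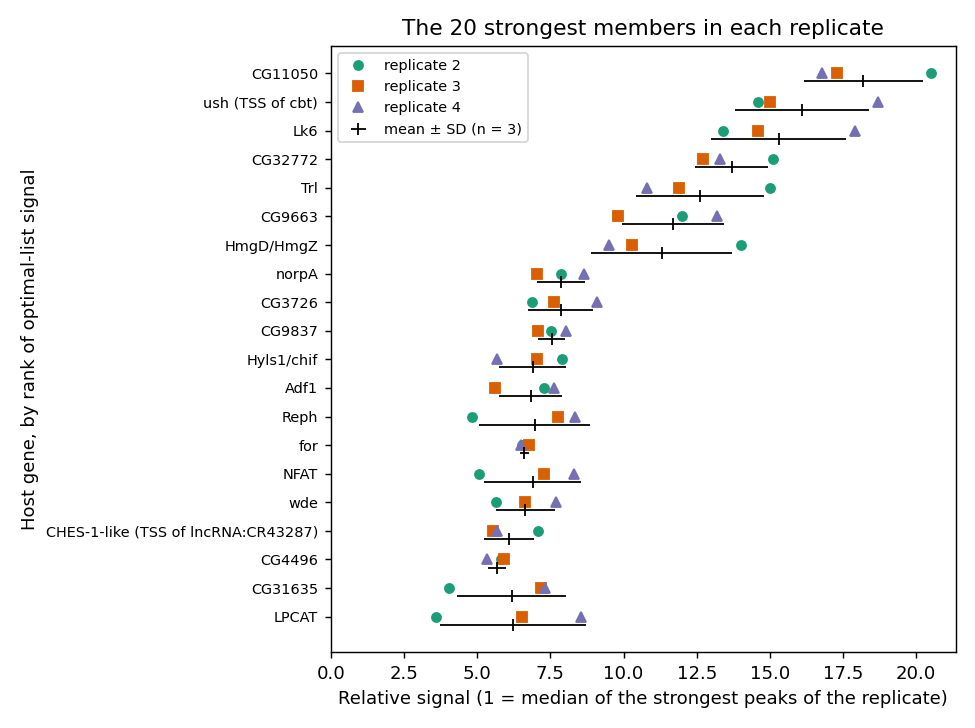
Relative signal (x axis, 1 is the median of the 5806 strongest peaks of the replicate) of the 20 members with the highest optimal-list signal (y axis, host gene and, where it is another gene, the gene of the nearest TSS). Coloured points are the 3 replicates, and black bars give the mean ± SD. The members from CG11050 to HmgD/HmgZ have means of 11.3 or more, and those from norpA to LPCAT of 7.86 or less.

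Replicates differed more for some members than for others. Of the 846 members, 766 had an overlapping peak in the full list of each replicate, and their coefficient of variation had a median of 27.5% (quartiles 17.4 and 39.9). Replicate 2 was the lowest of the 3 for 362 of them, replicate 4 for 271 and replicate 3 for 133. Among the strongest 25% of members, the steadiest was in Cdc7, a DNA replication kinase gene, at 2.40, 2.40 and 2.44 in replicates 2, 3 and 4. It was followed by gpp, the gene of the Dot1 histone methyltransferase (2.54, 2.5 and 2.46), for, and Bacc (2.29, 2.23 and 2.13). The least steady was in the overlapping genes CG4622 and ITP, an ion transport peptide gene, at 0.702, 1.88 and 4.52. Next were wit, a BMP type II receptor gene (0.324, 2.32 and 3.36), Sin3A, a corepressor gene (4.13, 1.88 and 1.12), and cno, an adherens junction gene (0.532, 2.44 and 2.52). Replicate 2 was the lowest for ITP, wit and cno and the highest for Sin3A.

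A member counted as matched in a replicate when it overlapped one of that replicate's 5806 strongest peaks by at least 1 bp. By this measure 488 members (57.7%, 95% interval 54.3 to 61.0) were matched in all 3 replicates, 248 in 2, 104 in 1 and 6 in none. The share was 53.2% for introns 2001 to 10000 bp away (2-sided Fisher's exact test, adjusted p = 0.0909), 46.6% for introns farther away (adjusted p = 0.00790), 47.4% for intergenic summits (adjusted p = 3.13e-04) and 57.6% for promoter summits (adjusted p = 1.00). The differences from both classes of farther introns and from intergenic summits turned round when replicate 2 was left out. In replicates 2, 3 and 4 singly, members were matched in 79.1%, 87.1% and 77.8% of cases, and the summits 2001 to 10000 bp away in 70.2%, 90.5% and 83.2%. Intergenic summits were at 60.2%, 89.2% and 86.2%, and promoter summits at 88.6%, 76.7% and 75.2%. Members thus lay between promoter summits on one side and farther introns and intergenic summits on the other in each replicate, and promoter summits had the highest share of these classes in replicate 2 and the lowest in replicates 3 and 4. With replicates 3 and 4 alone, members were matched in both less often than introns 2001 to 10000 bp away (by -6.67 points, Fisher's exact p = 0.00180) and than intergenic summits (by -7.08 points, p = 0.00184). Without replicate 3 or without replicate 4 they were matched more often than introns 2001 to 10000 bp away (by 5.14 points, Fisher's exact p = 0.0367, and by 6.46 points, p = 0.00602). Promoter peaks made up 60.6% of the strongest peaks of replicate 2, 45.3% of replicate 3 and 46.9% of replicate 4. The part of this make-up in the match shares was not tested.

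**Figure D3:**
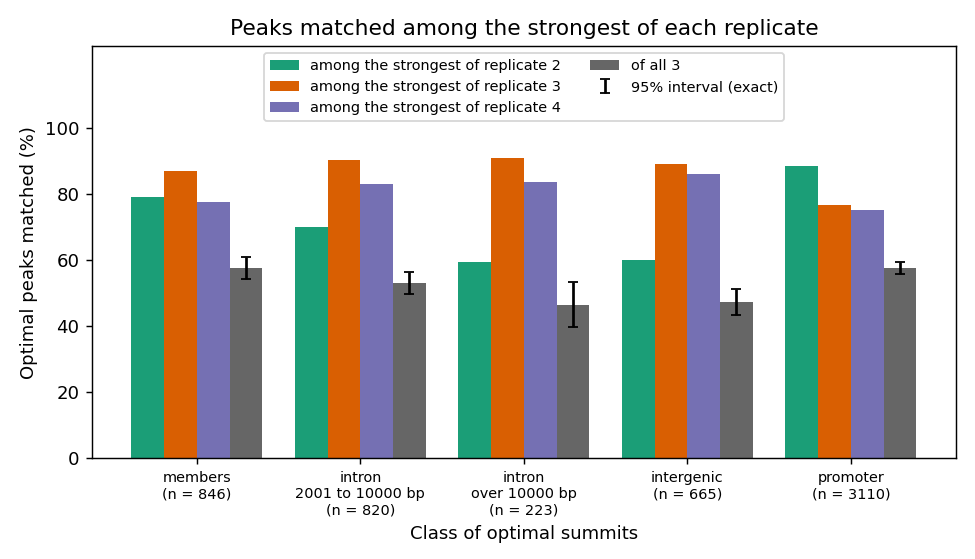
Share of optimal peaks (y axis, percent) matched among the 5806 strongest peaks of replicates 2, 3 and 4 and of all 3, by class of summit (x axis, with the number of peaks). Error bars are exact 95% intervals of the last share. Members stood at 79.1%, 87.1% and 77.8% in replicates 2, 3 and 4, between promoter summits on one side and farther introns and intergenic summits on the other each time.

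In the full replicate lists, which hold background, a matching peak's summit lay close to that of the member. The optimal list was made from these same libraries, so close summits and low q-values are in part built in. The median shift was 20 bp in replicate 2 and 18 bp in replicates 3 and 4, and 81.4%, 84% and 79.4% of the matched summits were within 50 bp. A deposited q-value of 0.01 or lower was reached by an overlapping peak for 95.5% of members in replicate 2, 94.9% in replicate 3 and 73.9% in replicate 4. The whole list of replicate 4 had 5138 peaks at that q-value, against 13037 in replicate 2 and 8464 in replicate 3.

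Members were spread over the arms in step with the bases of the class. Arms 2L, 2R, 3L, 3R and X held 141, 157, 164, 207 and 176 members, between 0.921 and 1.08 times the share of class bases, and none of these 5 passed the threshold (exact binomial tests, adjusted p of 0.456 or higher). Chromosome 4, the small, largely heterochromatic chromosome that carries NfI, held 1 member, 0.104-fold (exact binomial test, adjusted p = 0.00948).

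Members tended to lie in a first intron, and tended to lie nearest to a TSS of their host gene. The 2 traits were counted separately, and the class bases were not matched to members for distance from the TSS. A first intron of at least 1 transcript held 692 members (81.8%, 95% interval 79.0 to 84.3), while 64.5% of the class bases lie in one (2-sided exact binomial test, p = 1.37e-28). With introns that are first in every transcript that has them, the numbers were 55.0% of members and 42.2% of bases (exact binomial test, p = 9.01e-14). The nearest TSS belonged to the host gene for 727 members (85.9%, interval 83.4 to 88.2) and for 71.1% of class bases (exact binomial test, p = 3.92e-24). For the other 119 members it belonged to another gene, as for ush and cbt. The introns holding members had a median length of 4491 bp (quartiles 2077 and 10390), and the class bases lay in introns of median length 4583 bp.

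Members often lay nearest to a gene that had a promoter peak too. For 445 members (52.6%, 95% interval 49.2 to 56.0) a gene of the nearest TSS also had an optimal summit within 500 bp of a TSS. Such genes are nearest to 30.3% of the class bases, a ratio of 1.74 (exact binomial test, p = 2.15e-41). The tests in this paragraph count members as independent. However, the 846 members had 693 genes of the nearest TSS, and members with the same gene share this outcome. The share was 46.2% for introns 2001 to 10000 bp away (2-sided Fisher's exact test, adjusted p = 0.00943), 28.7% for introns farther away (adjusted p = 2.47e-10) and 22.1% for intergenic summits (adjusted p = 6.75e-34). The difference of 6.38 points from introns 2001 to 10000 bp away was 5.53 points (Fisher's exact p = 0.0954) without replicate 3 and 3.42 points (p = 0.277) without replicate 4. It was 3.13 points (Fisher's exact p = 0.191) when promoter summits had to lie within 250 bp, so this one comparison did not hold in those settings. Within pairs, the member was set against the strongest promoter summit of the gene, which several members can share. In replicates 2, 3 and 4, 428, 438 and 391 pairs were measured. The member had the higher signal in 42.1%, 51.4% and 46.8% of them (average 46.8% ± 4.65, SD, n = 3), so neither site was regularly the stronger. To give examples from the first 20 members, such a promoter peak was present for CG11050, cbt, Trl and for, and absent for Lk6, CG32772, norpA and NFAT. These examples do not give the share over the 20.

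The 846 members lay in 704 host genes, 680 of them protein-coding. Of these hosts 546 held 1 member, 117 held 2 and 41 held 3 or more. The most, 8, lay in the overlapping genes CG1677 and lncRNA:CR44357 on X, which share these peaks. A member among them had relative signals of 1.38, 3.25 and 4.48 in replicates 2, 3 and 4 (mean 3.03 ± 1.56, SD). Tlk, the gene of the Tousled-like kinase, which acts in chromatin assembly, held 6 over 17.7 kb of class intron, and CG42258 held 5 over 4.97 kb. The gene shn, whose zinc finger product acts in Dpp signalling, held 5, the strongest with a relative signal of 3.61, 3.26 and 2.81 in replicates 2, 3 and 4.

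Hosts with 4 members were Acsl (a long-chain acyl-CoA synthetase gene), C3G (a guanine nucleotide exchange factor for Rap1), CG10543, CG32264, CG9674, CHES-1-like, Dys (the dystrophin gene) and NFAT. Those with 3 included genes of growth and developmental signalling, such as pnt (an ETS factor of the EGFR pathway), sty (an inhibitor of receptor tyrosine kinase signalling), Sik3, SNF4Agamma (an AMPK subunit) and loco (a regulator of G protein signalling). They also included chromatin and transcription genes, namely Trl, HmgD, HmgZ, Kdm2, Mnt, fru and tna, and genes of RNA binding, namely pum, bol, larp and ps. Cell architecture was represented by dlg1, Msp300 (a giant nuclear envelope protein of muscle), Shrm, Kank and Mcr. The other hosts with 3 were CG9837, Ctps (CTP synthase), Diap1 (an inhibitor of apoptosis), Doa (a LAMMER kinase), Tpr2, atos and px. All 4 members of C3G, all 4 of NFAT and all 5 of CG42258 were matched in all 3 replicates, against 1 of 4 in CG9674 and 0 of 3 in SNF4Agamma.

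How often genes held a member depended on how much intron they have at this distance. Of the 5713 protein-coding genes with more than 200 such bases, 680 (11.9%) held a member. In 4 equal groups of genes ordered by these bases, with medians of 0.299, 0.682, 1.5 and 4.31 kb, the shares were 1.05%, 4.2%, 13.0% and 29.3%. The gene lists that follow were chosen with earlier results known, and are described without a test beside that 11.9% and the median room of all these genes, 1.11 kb.

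The EGFR pathway, the ecdysone response, the Hedgehog pathway and the stress kinases had the highest shares by host gene. By the gene of the nearest TSS, the EGFR list had 8 of 19 genes, ecdysone 5 of 17, Hedgehog 1 of 5 and the stress kinases 4 of 13, whereas glia kept 5 of 15 and fat body 3 of 9, so that only the EGFR list stayed above the glia and fat body lists among these 4 (all genes with room, 622 of 5713). Of 19 EGFR pathway genes with room, 10 (52.6%) held a member, with a median room of 1.5 kb, the median of the third of these groups, which held 13.0%. They included drk, an SH2/SH3 adaptor gene (relative signal 3.09, 3.86 and 4.35 in replicates 2, 3 and 4), and edl, a regulator of ETS factors (1.58, 3.43 and 4.74). They also included pnt (3.16, 1.41 and 1.59) and S, whose product carries the ligand Spitz (0.788, 2.92 and 3.67). Replicate 2 was the lowest for drk, edl and S and the highest for pnt. The peak in drk was nearest to a TSS of mars and that in pnt to one of lncRNA:CR46090.

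Of 17 ecdysone response genes 7 (41.2%) held a member, with a larger median room of 4.27 kb. Among these were ImpL2, which encodes a secreted insulin-binding protein (4.46 ± 1.24, SD, n = 3), the receptor gene EcR (3.28 ± 1.20), the nuclear receptor gene Hr4 (1.67 ± 0.430) and br (1.58 ± 0.293). Of 13 genes of JNK, AP-1 and stress kinases 5 (38.5%) held one, with a median room of 1.36 kb, among them the kinase gene msn (1.98 ± 0.277), kay, the fly Fos (1.63 ± 0.0879), Tak1 (0.885 ± 0.0506) and egr, a TNF-family ligand gene (0.520 ± 0.161). The peaks of EcR, br, kay and egr were nearest to a TSS of another gene, which for br was Mur2B.

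Of 15 Wingless pathway genes 5 (33.3%) held a member (median room 2.92 kb), the strongest in Wnt4, a ligand gene (1.55 ± 0.711), followed by sgg, the GSK3 kinase gene (1.18 ± 0.0721), and the receptor genes fz (1.04 ± 0.293) and arr. The Hedgehog list had 2 of 5 genes (40%, median room 1.65 kb), the receptor gene ptc (0.993 ± 0.533) and the co-receptor gene boi (1.15 ± 0.535). The peaks of Wnt4, fz and ptc were nearest to a TSS of another gene. The Dpp and Activin list had 2 of 13 (15.4%, median room 1.5 kb), shn and Mad, the Smad that transduces Dpp (3.17 ± 0.957), and the Notch list 2 of 10 (20%, 2.01 kb), the ubiquitin ligase gene neur (3.12 ± 0.893) and the coactivator gene mam (0.561 ± 0.150). Insulin and TOR signalling had 4 of 19 (21.1%, 1.29 kb), in Lk6, ImpL2, InR (the insulin receptor, 1.54 ± 0.444) and sgg.

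Among cell structure and chromatin lists, cell adhesion had 6 of 25 (24.0%, median room 2.70 kb), with kirre, crb, Cad96Ca and dlg1 between 1.44 and 2.23. Polycomb and trithorax genes had 3 of 16 (18.8%, 1.35 kb), Trl, ph-p (2.46 ± 0.392) and psq (1.23 ± 0.0734). Homeobox genes had 2 of 45 (4.44%), zfh1 (2.81 ± 0.525) and Abd-B (1.46 ± 0.629), with a median room of 1.5 kb, the same as the EGFR list.

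Tissue lists varied in share and in room. Glia had 5 of 15 genes (33.3%, median room 2.91 kb), among them Gs2, a glutamine synthetase gene (2.69 ± 0.399), pnt, loco (0.848 ± 0.0899) and nrv2 (0.867 ± 0.231). Fat body had 3 of 9 (33.3%, 2.02 kb), the lipase gene bmm (4.49 ± 1.18), the lipid droplet gene Lsd-2 (2.60 ± 0.144) and FASN1 (0.594 ± 0.0827). Muscle had 6 of 26 (23.1%, 1.51 kb), with Msp300 at 5.25, 2.76 and 1.70 in replicates 2, 3 and 4, kirre at 2.09 ± 0.395, mbc at 0.25, 2.17 and 2.46, and Tm1 at 0.719 ± 0.242. Replicate 2 was thus the highest for Msp300 and far the lowest for mbc.

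Neural progenitors had 3 of 13 (23.1%) with a median room of 6.00 kb, above that of the group of genes with the most room, which held 29.3%. The 3 were brat (3.55 ± 0.833), insc (0.953 ± 0.0463) and grh (0.594 ± 0.340), and neurons had 2 of 20 (10%, 3.42 kb), elav (2.35 ± 0.568) and the potassium channel gene Sh (0.732 ± 0.139). Epidermis and cuticle had 2 of 14 (14.3%, 1.34 kb), crb and grh, hemocytes 1 of 13 (7.69%, 0.856 kb), ush, and circadian and hormone transcription factors 1 of 14 (7.14%, 2.25 kb), sima. The mitochondrial ribosome had 1 of 5, mRpS9, whose peak was nearest to a TSS of wtrw. No gene of 12 of the trachea, 11 of the gut, 9 of the cytosolic ribosome or 54 chemoreceptors held a member, and the last 2 lists had little room, with medians of 0.412 and 0.379 kb.

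**Figure D4:**
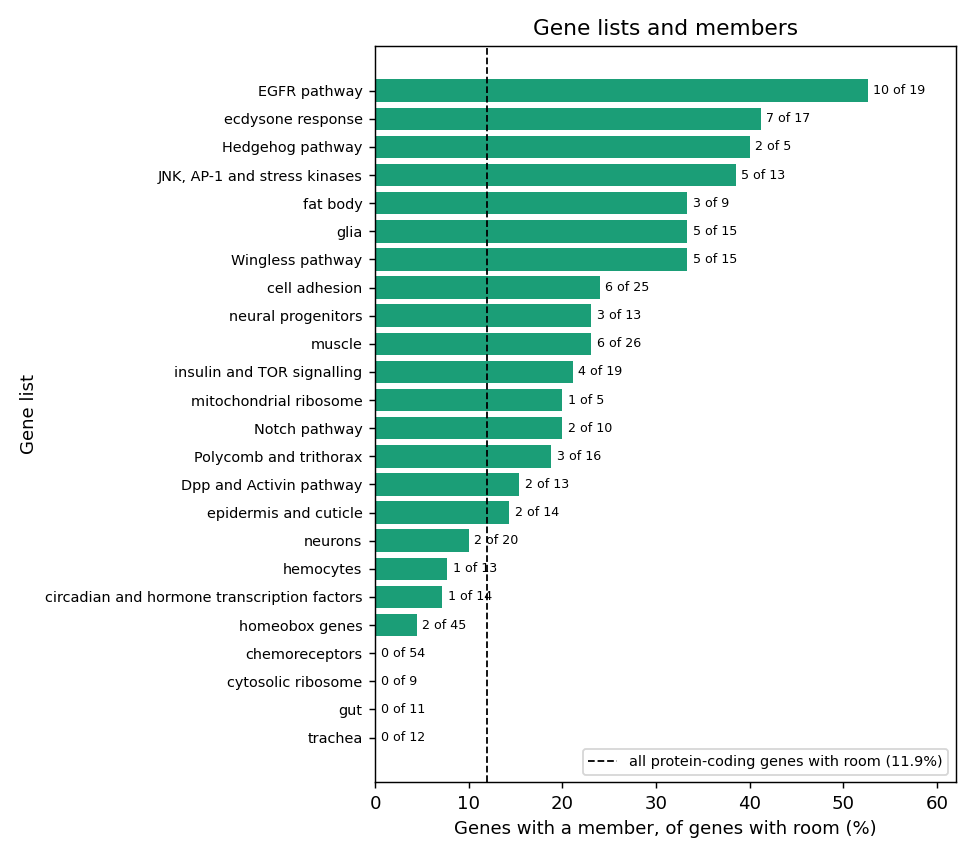
Share of the genes of each list that held a member (x axis, percent of genes with more than 200 intron bases at the stated distance; counts beside the bars), by gene list (y axis). The dashed line is the share of all such protein-coding genes, 11.9%. Median room per gene differs between lists. The EGFR pathway is at 52.6%, homeobox genes are at 4.44%, and 4 lists are at 0.

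Sequence at the summits was compared with other sequence from introns of the class. Windows reaching 100 bp to each side of the summit were set against 45141 tiles of the same length from introns of the class without an optimal peak. Tiles lay wholly inside such intron, whereas member windows could reach into exons or past the distance limits. Tiles were not matched to members for distance from the TSS within the class. The NFI palindrome was in 0 of 846 windows (95% interval up to 0.435%) and in 0.0798% of tiles, too rare in tiles for a decrease to show. Its arm TTGGC was in 33.7% of member windows and 44.4% of tiles, 0.758-fold (exact binomial test, adjusted p = 6.53e-09), and TTGGCA in 12.5% and 17.6%, 0.710-fold (exact binomial test, adjusted p = 8.93e-04). These were the 2 of 31 listed motifs (6.45%) that were less frequent, and since TTGGCA contains TTGGC the 2 calls are not separate. Among the strongest members, TTGGC was nevertheless present at CG32772, Trl, CG9837 and CHES-1-like. The call for TTGGCA was lost in windows reaching 50 bp to each side (0.714-fold, exact binomial test, adjusted p = 0.0614), against the members' own windows shifted by 1000 bp (0.858-fold, adjusted p = 0.189) and in members matched in all 3 replicates (0.732-fold, adjusted p = 0.0806). The arm TTGGC stayed less frequent with tiles weighted to the GC content of the members (0.838-fold, exact binomial test, adjusted p = 0.00348) and in each other setting tried.

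The forkhead sequence TAAACA was the 1 motif of 31 (3.23%) that was more frequent, in 27.4% of members and 22.1% of tiles (1.24-fold, exact binomial test, adjusted p = 0.00317), with Lk6, CG32772, Trl and CG9663 as the strongest that hold it. This call was lost with GC-weighted tiles (1.09-fold, exact binomial test, adjusted p = 0.492), in members matched in all 3 replicates (1.13-fold, adjusted p = 0.400), and without replicate 2 or 3 (1.16-fold and 1.14-fold, adjusted p = 0.223 and 0.390). Mean GC content was 36.1% in member windows and 39.2% in tiles. The sites of GAGA factor, Zelda, Grainyhead, GATA, AP-1, TCF, ETS, MEF2, SRF, Su(H) and other listed factors did not differ from tiles past the threshold.

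Members differed from promoter summits in 5 listed motifs. The DREF and BEAF-32 site TATCGATA was in 0.236% of members and 8.23% of promoter summits, core promoter Motif 1 (GGTCACACT) in 0.118% and 4.18%, and the E-box CAGCTG in 7.92% and 14.1% (2-sided Fisher's exact tests, adjusted p = 6.07e-23, 4.67e-11 and 2.30e-05). These 3 are 9.68% of the motifs. The E-box CATATG was in 9.10% of members and 5.63% of promoter summits, and a run of 8 A in 15.7% and 11.4% (Fisher's exact tests, adjusted p = 0.0138 and 0.0289, 6.45% of the motifs). None of the 31 passed the threshold between members and introns 2001 to 10000 bp away (Fisher's exact tests, lowest adjusted p = 0.519).

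Over all 7-mers, 212 (2.59%) were more frequent at member summits than in tiles and 68 (0.830%) less frequent (exact binomial tests, adjusted p under 0.05). The highest fold was that of CACTGTA, in 10.8% of windows and 1.89% of tiles (5.69-fold, exact binomial test, adjusted p = 5.00e-36), and in 9.54% ± 0.975 of the class summits of the replicates (SD, n = 3). Next were CTGTACC (3.66% and 0.716%, 5.12-fold), ACAGTGG (11.9% and 2.34%, 5.11-fold), CACAGTG (10.8% and 2.14%, 5.03-fold) and ACTGTAC (6.86% and 1.5%, 4.57-fold). These overlap one another, and 3 of the 5 hold ACAGTG or its complement. With GC-weighted tiles, 98 7-mers were more frequent, 80 of them among the 212, and 17 were less frequent. Without replicate 2, 3 or 4 the counts were 175, 111 and 143 higher and 33, 11 and 20 lower, from 608, 517 and 587 members. The 3 7-mers that hold the hexamer passed the threshold in each of these settings.

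Between members and introns 2001 to 10000 bp away no 7-mer passed the threshold, a count of 0 (0%) in either direction. The test was Fisher's exact test with Benjamini-Hochberg adjustment, and 310 had an unadjusted p under 0.05. For introns farther away no 7-mer passed the threshold either, with 244 at an unadjusted p under 0.05. Both unadjusted counts were below a share of 0.05 of all 7-mers tested. Fisher's exact test seldom gives a low p-value for a rare 7-mer, so these counts cannot tell whether the classes differ. Against intergenic summits 1 was less frequent (0.0122%), CCATCTA, in 0.709% of members and 4.51% of intergenic summits (Fisher's exact test, adjusted p = 0.0112). Against promoter summits 29 (0.354%) were more and 64 (0.781%) less frequent, led by CACTGTA (10.8% of members and 4.53% of promoter summits, Fisher's exact test, adjusted p = 1.58e-07) and ATCGATA (2.01% and 15.6%, adjusted p = 3.42e-30).

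Of all 2080 6-mers, 229 (11.0%) were more and 262 (12.6%) less frequent than in tiles. ACAGTG had the lowest p-value. It was in 215 of 846 member windows (25.4%, 95% interval 22.5 to 28.5) and 7.31% of tiles, 3.48-fold (exact binomial test, adjusted p = 1.24e-55), and 3.65-fold with GC-weighted tiles. Of these members 178 held 1 copy, 36 held 2 and 1 held 3. Since ACAGTG was picked for this value, the test describes how it was found and is no separate evidence. In the class summits of replicates 2, 3 and 4 it was in 21.3%, 21.8% and 25.9%, a mean of 23% ± 2.5 (SD, n = 3). The windows of 3335 pooled peaks of the same class below the threshold of the optimal list held it in 12.7% (interval 11.6 to 13.9), between members and tiles.

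The share of members with the hexamer did not fall steadily with signal. In 4 equal groups of members from the strongest to the weakest it was in 32.5%, 18.9%, 23.2% and 27.0%, and members matched in all 3 replicates held it in 26.2% of cases, against 24.3% of the other members. Of the 20 strongest members 6 held it, Lk6, norpA, for, NFAT, CHES-1-like and CG31635, and 4 of the first 5 did not, namely CG11050, ush, CG32772 and Trl. Other classes held it as well, 23.2% of introns 2001 to 10000 bp away, 19.3% of introns farther away, 16.7% of intergenic and 17.5% of promoter summits. After adjustment over all 6-mers, members passed the threshold only against promoter summits among these 4 classes (2-sided Fisher's exact test, adjusted p = 6.91e-05; intergenic, adjusted p = 0.0855).

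Copies of ACAGTG were densest beside the summit, at 25 to 100 bp, and within 25 bp were still denser than at 200 to 500 bp. Members had 0.922 copies per kb within 25 bp of the summit, 1.73 per kb at 25 to 100 bp, 0.928 at 100 to 200 bp and 0.453 at 200 to 500 bp. The class summits of the replicates gave 0.770 ± 0.113, 1.67 ± 0.241 and 0.483 ± 0.0253 per kb within 25 bp, at 25 to 100 bp and at 200 to 500 bp (SD, n = 3). Introns 2001 to 10000 bp away showed a like pattern (0.659, 1.66 and 0.455 per kb), whereas promoter summits had 1.02 copies per kb within 25 bp and 1.01 at 25 to 100 bp. GC content at members was likewise lower within 25 bp (34.5%) than at 25 to 100 bp (36.5%), but it was highest at 200 to 500 bp (42.8%), where copies were fewest, and at promoter summits 37.8%, 37.6% and 43.9%. Its part in the dip at the summit was not tested.

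**Figure D5:**
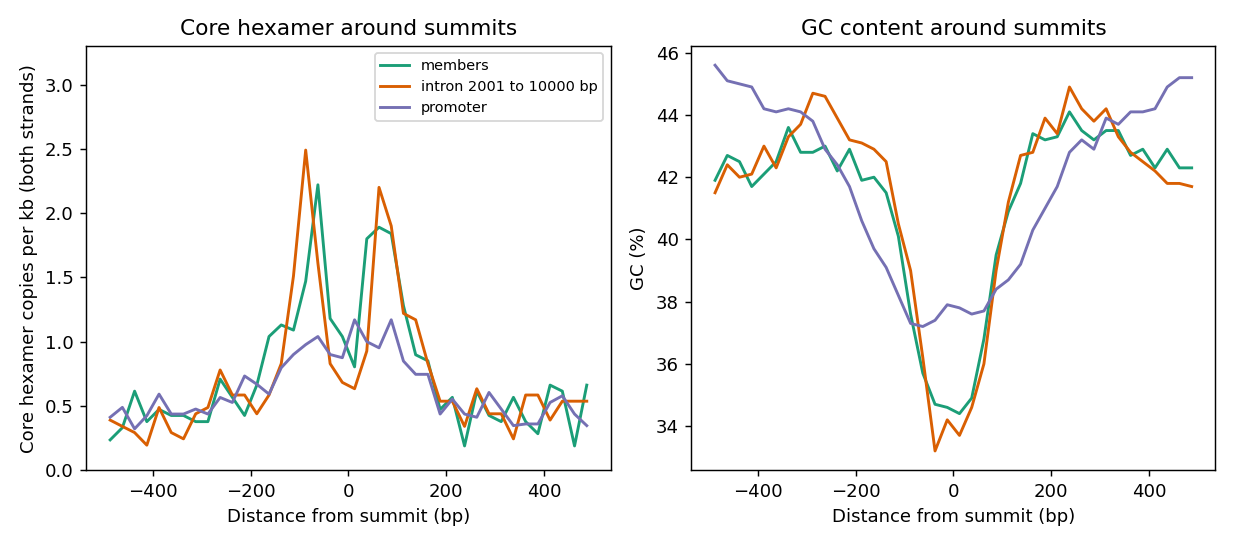
Left, copies of the hexamer ACAGTG per kb on both strands (y axis) by distance from the summit in bp (x axis, bins of 25 bp), for members, introns 2001 to 10000 bp from a TSS and promoter summits. Right, GC content (y axis, percent, axis not starting at 0) in the same bins. Members have 1.73 copies per kb at 25 to 100 bp, 0.922 within 25 bp, and their lowest GC content at the summit.

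Bases beside the hexamer were also uneven over all copies. Over 240 copies at members with 5 bases on each side in the window, the base before ACAGTG was C in 40.4% and T in 38.3%, against 28.4% and 25.5% at 3339 copies in tiles. The base before that was G in 45%, against 27.0% in tiles, and the base after the hexamer was G in 44.6%, against 31.7%. These are descriptions of copies found in windows, and no factor was tied to them here.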

How the data were processed

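ChIP-seq peak lists of 3 libraries of 1 group were analysed. Per the file headers and deposited listings, each replicate list and the pooled list hold 30000 peaks with background on dm6, and the optimal list of 5806 was derived from them by the irreproducible discovery rate. Sonicated fragments ranged from 200 to 800 per the labels. The aligner and peak caller were not stated in the labels or file headers. Peak signal is the authors' deposited value, with no scale stated, while the −log10 q-value is likewise the authors' deposited value. The files hold no read counts, so depth is unknown, and intervals cover the counting of peaks only. The labels call the replicates biological and say no more of how embryos were collected.

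Summits were placed on arms 2L, 2R, 3L, 3R, 4 and X with the Ensembl 115 annotation of BDGP 6.54, leaving out 5896 transposable element entries. Promoter summits lay within 500 bp of a TSS. Sequence came from the RefSeq dm6 reference. Windows reached 100 bp to each side, tiles had the same length, and 9 member windows overlapped another. Motifs were sought on both strands. Tests were 2-sided exact binomial and Fisher tests with Benjamini-Hochberg adjustment and exact sign-flip permutation tests (Python 3.11.15, SciPy 1.17.1). The binomial tests were tried on randomly drawn intron tiles, with and without a planted 7-mer, and on random positions. The Fisher and sign-flip tests were not tried in this way. The members, 31 motifs, 25 gene lists and comparisons were chosen with earlier results of these data known. Named genes are hosts and nearest genes of the 20 strongest members, hosts with 3 or more, members nearest the distance limits, up to 4 genes per list with the strongest member, the 4 steadiest and 4 least steady members of the strongest 25%, and the strongest with a motif past the threshold. Zw, Csk and Baldspot were named after their sequences were seen. One gene list and a few sites are not reported here. Alternatives were other distance limits, annotations, list lengths, overlap rules, windows and backgrounds, and leaving out each replicate, which for the optimal list meant keeping peaks matched in both others.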

Additional observations from a re-analysis of the deposited data

How the results depend on the processing

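The 1.71-fold density of summits in these introns kept its direction and stayed past the threshold in all alternatives run (1.53 to 1.88). The share of members in first introns was rerun only with introns first in every transcript (1.30-fold). That of members nearest to a TSS of their host was rerun only with protein-coding genes (1.15-fold). Both stayed past the threshold, but neither was rerun without a replicate or with other distance limits. With transposable element entries counted as genes, an alternative added after seeing the data, there were 870 members. The share matched in all 3 replicates was 54.0% with the optimal summit inside the replicate peak, 35.3% with 50% overlap, 31.3% and 79.9% with the strongest 3000 and 10000 peaks, and 61.1 to 71.9% in both others when 1 replicate was left out. Its differences from other classes turned or changed call as follows (p unadjusted). With 3000 peaks, members were 6.45 points above introns 2001 to 10000 bp away (Fisher's exact p = 0.00386) and at -3.72 points against promoters (p = 0.0453). With 10000 peaks they were at -2.16 points against introns over 10000 bp away (Fisher's exact p = 0.508) and 4.73 points above promoters (p = 0.00412). Leaving out 1 replicate gave -6.67 to 6.46 points against introns 2001 to 10000 bp away, -5.71 to 16.5 points against introns farther away, -7.08 to 15.7 points against intergenic summits and -5.38 to 8.30 points against promoters. The share with a promoter summit was 39.8% within 250 bp, where the difference from introns 2001 to 10000 bp away was 3.13 points, and 3.42 to 7.60 points without 1 replicate. Of the listed motifs, 3 passed the threshold, against 9 with windows of 200 bp to each side, 10 against shifted windows and 1 in members matched in all 3 replicates. The 7-mers more and less frequent numbered 98 and 17 with GC-weighted tiles, 67 and 7 in windows of 50 bp to each side, and 111 to 175 and 11 to 33 without 1 replicate, and the less frequent 6-mers 262. In all, 169 alternative values were computed, of which 126 were labelled unchanged. For tests this meant the same direction and call, and for other shares and signals a value within the interval or SD of the main value. For counts, gene lists included, it meant only staying within a preset factor of the main count, so the label is a loose one there. The cause of the changes was not tested. No paired analysis was possible because all 3 libraries belong to 1 group. Unknown depth limits every statement on weak or missing peaks.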
